A study of Mus musculus with 8 samples.

Results

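The genes described here encode the axoneme, the microtubule core of motile cilia, and the factors that build or switch it on. They are 44 mouse genes chosen by symbol, and all 44 were found among the 55401 genes of the deposited count table and passed the filter on low counts. RNA was sequenced from lung cells in 8 libraries, each prepared 10 days after tamoxifen was given. All 8 carried a Cre recombinase labelled Scgb1a1cre, named for the main secreted protein of club cells, and all received tamoxifen. The 4 control libraries have the genotype Scgb1a1cre; Cdh1F/+, with a single floxed allele of Cdh1, which encodes E-cadherin, an adhesion protein of epithelia. The 4 mutant-labelled libraries have the genotype Scgb1a1cre; Cdh1F/F, with both alleles floxed. The study asked which genes change in airway cells once Cdh1 is inactivated in club cells, the secretory cells of small airways. According to the series text, EPCAM-selected cells depleted of the immune and endothelial lineages were sorted by GFP, but whether a library is the GFP-positive or the GFP-negative fraction is not given. Ages and the number of animals are not given either, and every p-value therefore reflects library-to-library spread, which may be technical.

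A motile cilium beats because dynein arms, motor complexes fixed to a ring of doublet microtubules, pull neighbouring doublets past each other. Rulers and the nexin-dynein regulatory complex set the spacing of the arms and link the doublets, and radial spokes pass signals to the arms from the central pair of microtubules. Dynein arms are assembled in the cytoplasm by dedicated factors before they enter the cilium. In the airway this equipment is made by multiciliated cells, in which the transcription factor Foxj1, with Rfx factors, switches on the axonemal genes. Multiciliated cells can arise from club cells, and their beating clears mucus.

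The libraries held between 15111663 and 21673654 counts. Levels are given as CPM (counts after scaling to TMM-adjusted library totals). Over library totals without that adjustment, 3 counts, which a count of 0 still allows, come to 0.138 to 0.199 CPM. Every member lay above that floor in every library. This floor covers counting error only. The targeted gene offered no check of the labels: the Cdh1 level was 383 ± 44.6 CPM over the controls and 403 ± 6.07 CPM over the libraries labelled mutant (mean ± SD, n = 4 each, as for all such pairs below), with a ratio of 1.05 (95% interval 0.914 to 1.21) and an adjusted p of 0.648. A sum over the whole gene does not show whether floxed exons were lost, so every direction below rests on the labels. The defining genes of the airway secretory cell were abundant, with Scgb1a1 at 13382 ± 553 CPM in controls, and so were those of alveolar and endothelial cells, with Sftpc at 17829 ± 2988 CPM and Pecam1 at 1171 ± 182 CPM. The libraries therefore held RNA of several lung cell types. Epcam, at 67 ± 6.9 CPM in controls, lay far below Pecam1. These levels do not show the EPCAM selection and endothelial depletion that the series text describes. How the sort relates to them was not tested. Over all genes the controls fell into pairs: the chi-square per gene was 4.88 between controls 2 and 3 and 19.98 between controls 1 and 4, but 36.43 to 45.58 between libraries of different pairs. Among libraries labelled mutant it was 6.12 to 12.67. The count of members called is therefore also given without each pair of controls. In such bulk samples, fewer or more cells of a type and less or more RNA per cell cannot be told apart.

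Of the 44 axonemal genes, 19 rose in the libraries labelled mutant, 0 fell and 25 were not called. Calls were made at an adjusted p of 0.05, from the quasi-likelihood test of edgeR, adjusted by Benjamini and Hochberg's method over all 16964 tested genes. By the same rule 5.45% of all tested genes were called higher and 2.36% lower, 7.81% in all. At an unadjusted p under 0.05, 31 members were higher and 0 lower, DESeq2 called 25 higher and 0 lower, and limma-voom 18 and 0. The shares of 5.45% and 2.36% belong to the adjusted edgeR rule alone. Shares of all tested genes under the other rules are not given, here or for the lists below, so those counts lack a background. The estimated change was positive for 43 of the 44 genes, against 49.1% of all tested genes. The exception was Tppp3. The median ratio of the members was 1.45, and the ratios ran from 0.954 for Tppp3 to 2.60 for Lrrc23. Groups did not overlap, with every library labelled mutant above every control, for 22 members, and the reverse held for 0; among all tested genes these shares were 9.74% and 7.07%. By structural part, calls were made for 4 of 5 assembly factors, 3 of 4 radial spoke genes, 4 of 6 ruler and nexin-dynein genes, 6 of 10 doublet and other genes and 1 of 3 regulators, but for 1 of 9 inner arm genes, 0 of 4 outer arm genes and 0 of 3 central pair genes. Differences between parts were not tested.

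**Figure D1:**
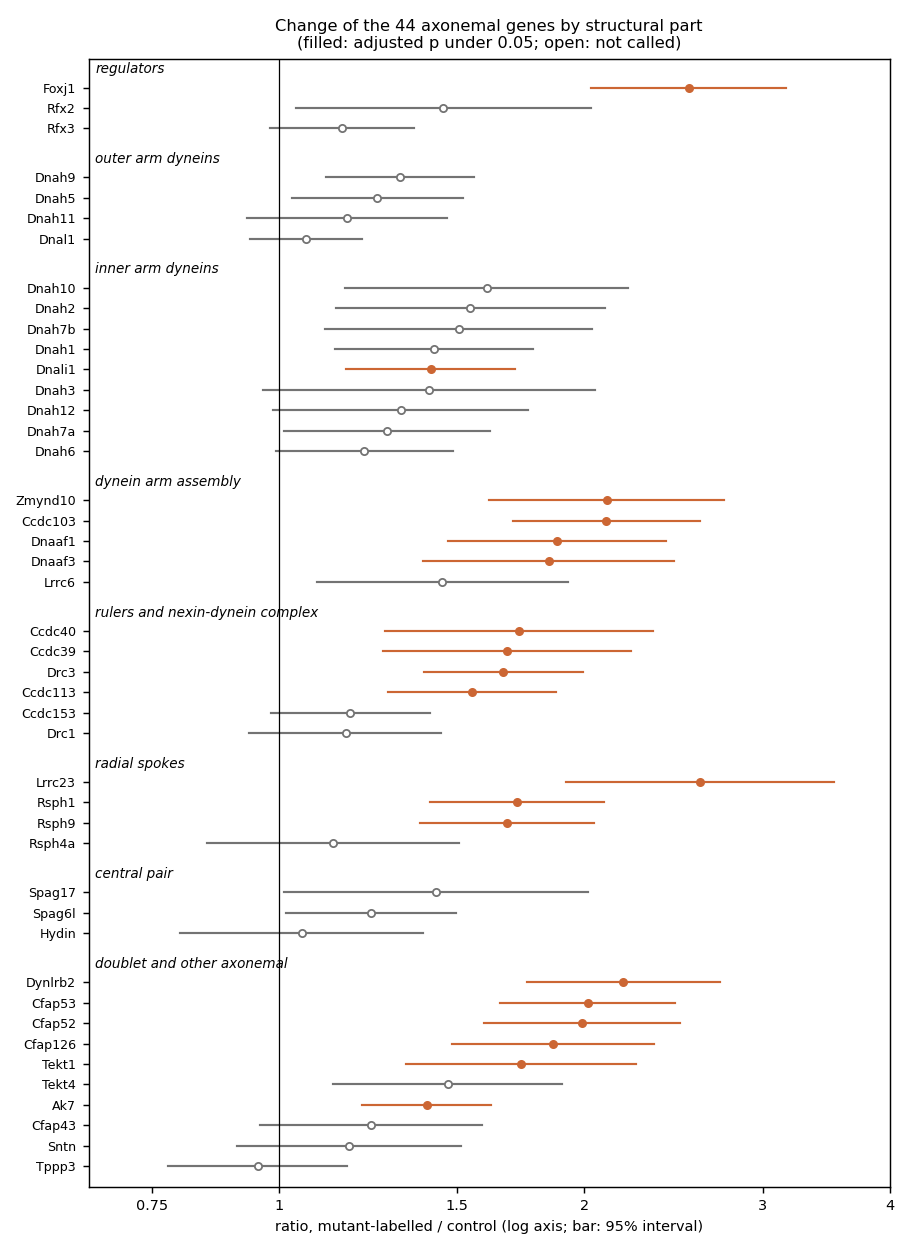
Ratio of the fitted level in libraries labelled mutant to that in controls, on a log axis, for each of the 44 genes grouped by structural part; bars are 95% intervals and filled orange points passed an adjusted p of 0.05. The dynein heavy chain genes (Dnah) sit between 1.17 and 1.6 with open points, and 4 of 5 assembly genes sit between 1.85 and 2.11 with filled points.

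The count of 19 depended on which libraries entered the fit. The count was 15 without controls 2 and 3, 31 without controls 1 and 4, and between 14 and 24 when a single library was left out. Calls over all genes also rose steeply without controls 1 and 4, as the closing section gives. The rise to 31 was therefore not confined to the members. Whichever single library was left out, 14 genes kept the call: Foxj1, Dnaaf1, Zmynd10, Ccdc103, Drc3, Ccdc113, Rsph1, Rsph9, Lrrc23, Cfap52, Cfap53, Cfap126, Ak7 and Dynlrb2. Most epithelial genes moved in the same direction. Of 20 genes shared by lung epithelial cells, 8 rose and 0 fell, among them Epcam, from 67 ± 6.9 to 103 ± 6.78 CPM, a ratio of 1.53. Prss8 went the other way without overlap, from 104 ± 18.1 to 78.3 ± 3.67 CPM (ratio 0.754, adjusted p = 0.0636). DESeq2 called 9 of the list higher and 1 lower. The summed level of the 20 ran from 1296.2 to 1588.4 CPM in controls and from 1713.7 to 1849.9 CPM in libraries labelled mutant. Cdh1, the targeted gene, is among the 20 and enters that sum. Scaled to that epithelial sum, which moved the median log2 change of all genes to -0.31 and left 8.2% of called genes higher in place of 69.7%, 14 members stayed higher and Tppp3 was called lower. That scaling shifts every gene by nearly the same amount, and the median log2 change of the members went from 0.54 to 0.23 with it. Endothelial genes moved the other way: 4 of 10 fell and 0 rose, Pecam1 with a ratio of 0.718, and their summed level ran from 4660.0 to 5923.0 CPM in controls and from 3810.0 to 4249.9 CPM in libraries labelled mutant. The endothelial count was 0 without controls 2 and 3, 9 without controls 1 and 4 and 9 by DESeq2. The part of the epithelial and endothelial shifts in the axonemal changes was not tested.

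Among the regulators, Foxj1 rose and Rfx2 and Rfx3 were not called. Foxj1 (ENSMUSG00000034227.7, chromosome 11, 116330704 to 116335399, GRCm38) encodes the forkhead transcription factor that switches on the genes of motile cilia. It stood at 112, 97.1, 81.6 and 129 CPM in controls 1 to 4 and at 255, 293, 228 and 287 CPM in libraries 1 to 4 labelled mutant. All 4 of the latter lay well above every control, and the ratio was 2.53 (95% interval 2.03 to 3.16, adjusted p = 0.000585). Rfx2 (ENSMUSG00000024206.15, chromosome 17, 56775897 to 56831013) and Rfx3 (ENSMUSG00000040929.17, chromosome 19, 27761721 to 28011166) encode winged-helix factors that bind the X-box element of ciliary promoters. Rfx2 was measured at 20.5, 17.1, 14.8 and 31.2 CPM in the controls and 30.6, 33.8, 24.6 and 32.8 CPM in the mutant-labelled group. Control 4 alone reached the range of the mutant-labelled libraries, and without it Rfx2 was called. With all libraries its ratio was 1.45 (1.04 to 2.03, adjusted p = 0.155). For Rfx3 the controls gave 15.1, 18.2, 15.3 and 13.3 CPM and the others 18.4, 17.7, 16.8 and 18.3 CPM, with overlapping groups and a ratio of 1.15 (0.98 to 1.36, adjusted p = 0.252). The interval of the Foxj1 ratio lay above that of Rfx3 and just above that of Rfx2, and the differences between the regulators were not tested.

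**Figure D2:**
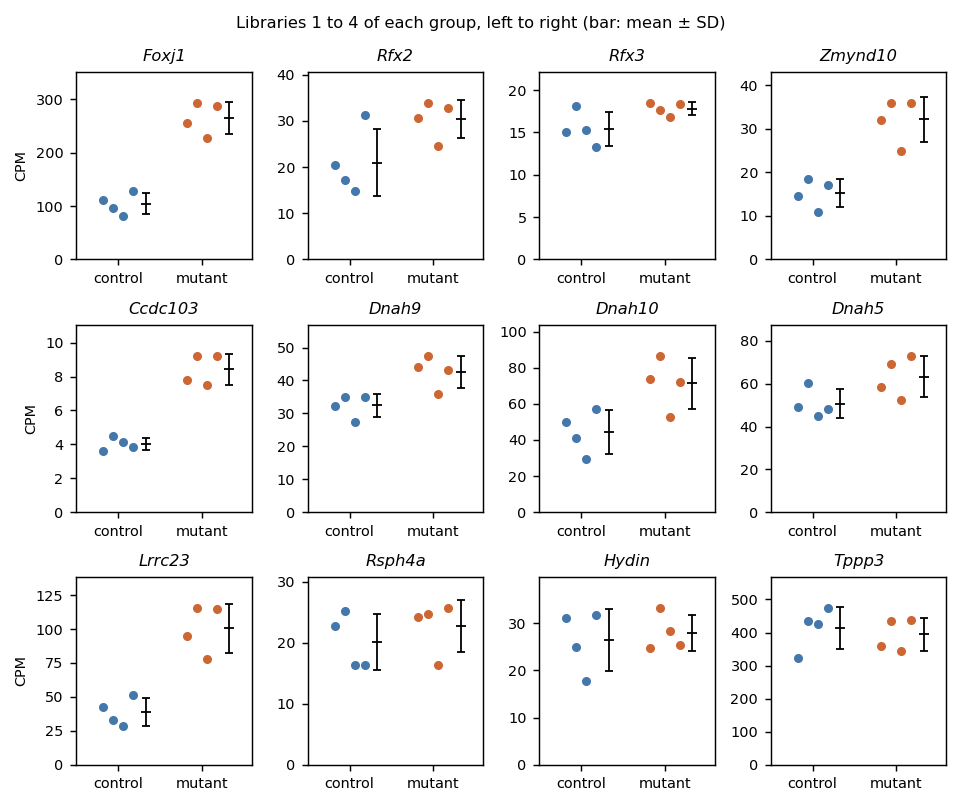
Level in CPM (linear axis from 0) of 12 genes in libraries 1 to 4 of each group, left to right, with the mean and SD beside them; blue is control and orange is labelled mutant. Foxj1, Zmynd10, Ccdc103 and Lrrc23 separate the groups completely, whereas Rfx3, Rsph4a, Hydin and Tppp3 overlap.

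Because Rfx factors and Foxj1 act through promoters, the windows from 250 bases before to 50 after each RefSeq start (build GRCm38.p6) were searched for the letters of the X-box. A window was given for 36 of the 44 genes. None was given for Foxj1, Dnaaf1, Rsph1 and Cfap53, which were called higher, or for Rsph4a, Lrrc6, Dnah3 and Tppp3, which were not. The X-box was searched on both strands as the arm GTNNCC followed by the arm NGNAAC, with 0 to 3 bases between the arms. It was found for 12 of 36 members, or 33.33%, against 5.94% of 27025 genes with a window. The share was the same, 33.33%, among the 15 members called higher and the 21 not called. These letters were widened after narrower arms, GTTNCC and GGNAAC with the same spacing, had matched 0 of the 36, against 0.94% of all genes. The heavy chain genes of the dynein arms held the wider X-box in 1 of 10. A single arm written GTTGCCA, which can lie inside an X-box, was found for 8 of 36 members (22.22%) and 5.02% of all genes. A forkhead motif, GTAAACA on either strand, was found for 3 of 36 members (8.33%) and 4.05% of all genes. A list of 89 other axonemal genes, 69 of them with a window, held the wider X-box in 47.83%. The narrower arms, absent from the members' windows, matched 5 of these 69 (7.25%). A match describes letters in a window and does not show binding.

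The stretches below come from RefSeq and show Rfx2, Rfx3 and the 4 members with the lowest adjusted p that had a window (Dynlrb2, Ccdc103, Lrrc23 and Cfap52), with Dnah9 and Hydin, picked after the matches were seen, as members that carried a match and were not called. Each reads 5′ to 3′ on the gene's own strand, with the X-box match in capitals and 30 bases on either side, ending at most 24 bases after the start; where there was no match the 70 bases before the start are shown.
Dynlrb2, chr8:116504934-116505006, plus strand: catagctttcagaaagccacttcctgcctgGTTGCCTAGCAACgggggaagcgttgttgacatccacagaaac
Ccdc103, chr11:102881191-102881247, plus strand: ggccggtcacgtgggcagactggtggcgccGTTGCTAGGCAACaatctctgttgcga
Lrrc23, chr6:124779849-124779921, minus strand: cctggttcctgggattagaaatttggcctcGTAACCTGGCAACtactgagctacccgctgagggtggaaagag
Cfap52, chr11:67965643-67965712, minus strand: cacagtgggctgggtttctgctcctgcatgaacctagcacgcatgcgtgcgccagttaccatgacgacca
Rfx2, chr17:56831080-56831154, minus strand: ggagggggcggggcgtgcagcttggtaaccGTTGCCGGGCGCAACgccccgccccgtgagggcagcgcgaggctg
Rfx3, chr19:28011167-28011236, minus strand: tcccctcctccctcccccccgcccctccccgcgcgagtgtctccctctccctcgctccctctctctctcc
Dnah9, chr11:66168591-66168663, minus strand: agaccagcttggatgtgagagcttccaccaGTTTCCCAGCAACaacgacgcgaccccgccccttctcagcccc
Hydin, chr8:110266926-110266999, plus strand: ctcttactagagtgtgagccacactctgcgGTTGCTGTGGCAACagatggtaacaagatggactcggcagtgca
The match of Dynlrb2 ended 38 bases before the start, that of Hydin 7, that of Dnah9 69, that of Rfx2 101 and that of Lrrc23 151, while that of Ccdc103 spanned the start and ended 10 bases after it. Cfap52, called higher, and Rfx3, not called, showed no match in this window.

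Outer dynein arms drive the power of the beat. Dnah5, Dnah9 and Dnah11 encode their heavy chains, the motor subunits, and Dnal1 a light chain that sits on a heavy chain. None of the 4 was called by edgeR or limma-voom, while 2 had an unadjusted p under 0.05 and DESeq2 called Dnah9. Dnah9 (ENSMUSG00000056752.16, chromosome 11, 65831282 to 66168551) read 32.3, 35.1, 27.4 and 34.9 CPM in controls and 44, 47.5, 36 and 43.1 CPM in libraries labelled mutant. The groups did not overlap, with control 2 just below mutant-labelled library 3, and the ratio was 1.32 (1.11 to 1.56, adjusted p = 0.0542). Dnah5 was at 49.3, 60.4, 44.8 and 48.2 CPM and 58.7, 69.2, 52.3 and 73.1 CPM, with control 2 inside the other group's range and a ratio of 1.25 (1.03 to 1.52). For Dnah11 the values were 21, 16.6, 13 and 20.4 and 20.4, 23, 19.2 and 20.3 CPM. Its control 1 lay above 3 of the mutant-labelled libraries, and the ratio was 1.17 (0.93 to 1.47). The smallest outer arm estimate was that of Dnal1, at 39.5, 42.6, 36.2 and 36.9 CPM in controls and 40.3, 43.8, 37.4 and 43.6 CPM in the other group. Control 2 exceeded mutant-labelled libraries 1 and 3, and the ratio was 1.06 (0.938 to 1.21, adjusted p = 0.522).

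Inner dynein arms shape the bend. Dnah2 and Dnah10 encode the heavy chains of the double-headed inner arm, Dnah1, Dnah3, Dnah6, Dnah7a, Dnah7b and Dnah12 heavy chains of single-headed arms, and Dnali1 a light intermediate chain. Only Dnali1 was called among the 9. Its level was 23.9, 25.4, 23.3 and 24.8 CPM in controls and 33.5, 37.9, 26.1 and 39.9 CPM in libraries labelled mutant, so that the lowest of the latter lay just above the controls. The ratio was 1.41 (1.17 to 1.71, adjusted p = 0.0397), and leaving out any single library other than control 1, control 4 or mutant-labelled library 3 lost the call, as did limma-voom. The largest heavy chain estimate was that of Dnah10 (ENSMUSG00000038011.15, chromosome 5, 124725085 to 124834308), at 50.02, 40.9, 29.5 and 57.2 CPM and 73.6, 86.6, 52.7 and 72.3 CPM. Control 4 exceeded mutant-labelled library 3, and the ratio was 1.6 (1.16 to 2.21, adjusted p = 0.0783). Dnah2 had a ratio of 1.55 (1.14 to 2.1) and Dnah1 one of 1.42 (1.14 to 1.78). Dnah3 had the widest control spread, 48.3, 27.7, 19.7 and 32.2 CPM, against 44.5, 51.4, 34.8 and 49.6 CPM, and a ratio of 1.41 (0.966 to 2.05). Exons of other genes cover 10.5% of its counted bases. The smallest inner arm estimate was that of Dnah6, at 70.9, 63.6, 49.9 and 62.7 CPM and 72.8, 85.2, 60.8 and 81.5 CPM, with controls 1, 2 and 4 above the lowest mutant-labelled library and a ratio of 1.22 (0.995 to 1.48, adjusted p = 0.21), and Dnah12 had 1.32 (0.988 to 1.76).

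Dnah7a and Dnah7b are close paralogs, and read pairs that map to several places were not counted, so their levels are uncertain. Dnah7a was listed at 5.63, 5.85, 4.81 and 5.83 CPM in controls and 6.9, 6.32, 6.26 and 8.77 CPM in libraries labelled mutant, and Dnah7b at 9.43, 5.78, 5.81 and 9.36 and 10.3, 11.7, 10.2 and 13.7 CPM. The groups did not overlap for either gene, and neither was called (ratios 1.28 and 1.5, adjusted p = 0.177 and 0.0989). A further copy outside the 44, Dnah7c, gave a ratio of 1.19 (adjusted p = 0.461).

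Considered as a family, the 11 dynein heavy chain genes all had positive estimates, with ratios from 1.17 to 1.6 and a median of 1.32, and 0 of 11 were called by edgeR. At an unadjusted p under 0.05 there were 7, limma-voom called 0, and DESeq2 called 5, namely Dnah1, Dnah2, Dnah7b, Dnah9 and Dnah10. The calls depended on the libraries and on the settings: 4 were called without control 1, 4 without control 4 and 8 without both, and 2 without mutant-labelled library 3. With all libraries, 4 were called with the replicate number as a block, 2 without the low-count filter and 1 when scaled by library totals only. Without controls 1 and 4 the calls among the other 33 members went from 19 to 23. Calls over all genes also rose, as the closing section gives. Whether the heavy chains rose beyond these was not tested. With the epithelial scaling their median log2 change was 0.10, in place of 0.40, and the estimates of Dnah6 and Dnah11 turned negative. The other 33 members had a median ratio of 1.55, and 19 were called. Set against Foxj1 in the same library, the summed CPM of the heavy chains was 3.16, 3.13, 2.88 and 2.59 times that of Foxj1 in controls 1 to 4 and 1.59, 1.6, 1.47 and 1.57 times in the libraries labelled mutant. The structural members other than heavy chains gave 8.68, 11.2, 11.99 and 9.01 times Foxj1 in controls and 5.09, 5.24, 5.04 and 5.37 times in the other group. Neither ratio overlapped between groups, and both were lower in the libraries labelled mutant. Foxj1 itself had a ratio of 2.53, above every other member except Lrrc23. Dividing by Foxj1 therefore lowers either sum, and the separation restates the Foxj1 change. Outside the 44, the heavy chain gene Dnah8 rose from 5.06 ± 1.26 to 10.1 ± 0.838 CPM (ratio 1.98, 1.49 to 2.62, adjusted p = 0.0102), and Dnah14 and Dnah17, with ratios of 1.41 and 1.08, were not called.

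The heavy chain genes are among the longest counted here. Of 13 members with at least 10 kb of counted exons, 0 were called higher, against 8 of 11 under 2 kb, 7 of 11 between 2 and 4 kb and 4 of 9 between 4 and 10 kb. Across all tested genes the share called higher was 3.22% at 10 kb or longer and 6.53% under 2 kb. Over the 44 members the rank correlation of the log2 change with length was -0.41 and with GC content 0.42, over 85 other axonemal genes -0.11 and -0.02, and over all tested genes -0.08 and 0.19. These are descriptions across genes, which share libraries and are not independent. Removing each library's trend with length, an alternative chosen after these values were seen, left 19 members and 0 heavy chains called, and so did removing the trend with GC content. Each trend was fitted across tested genes at large, so its removal cannot decide about length or GC content among the members. The 13 longest members are the 11 heavy chains with Hydin and Rfx3, so length and gene family cannot be told apart among the members. Of the other axonemal genes at 10 kb or longer, Dnah8 and Cfap54 were called higher, with ratios of 1.98 and 1.57. Dnah7c, Dnah14, Dnah17, Spag1, Cfap61 and Nek10 were not called.

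**Figure D3:**
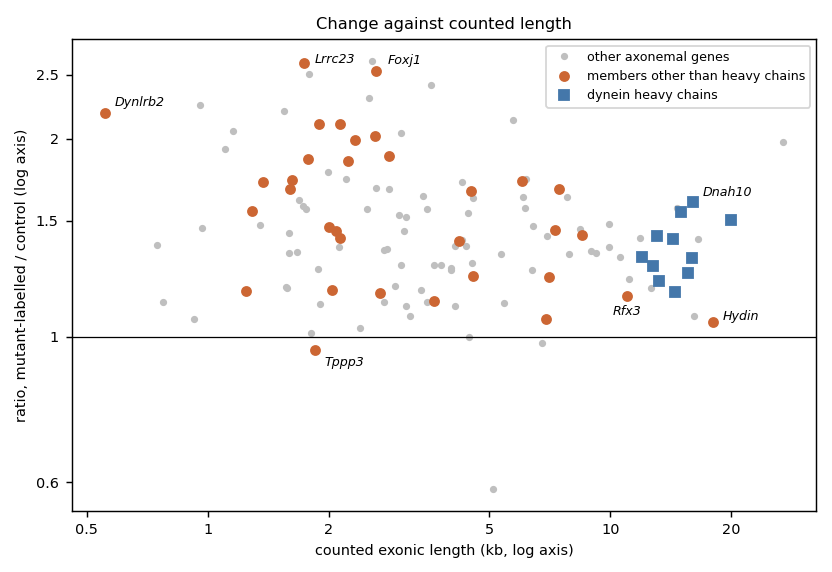
Ratio of libraries labelled mutant to controls against the counted exonic length in kb, both on log axes; squares are the 11 dynein heavy chains, orange points the other 33 members and grey points 85 other axonemal genes. The 13 members at 10 kb or longer lie between ratios of 1.05 and 1.6, and shorter members reach 2.60.

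Dynein arm assembly factors gave 4 calls among 5 genes, with a median ratio of 1.88. Ccdc103, a coiled-coil protein needed for arms to attach to the axoneme (ENSMUSG00000020930.9, chromosome 11, 102881204 to 102885216), stood at 3.61, 4.47, 4.17 and 3.84 CPM in controls and 7.82, 9.2, 7.49 and 9.22 CPM in libraries labelled mutant. The spread within each group was small beside the gap between them, and the ratio was 2.1 (1.7 to 2.6, adjusted p = 0.00148). Zmynd10 (ENSMUSG00000010044.12, chromosome 9, 107547298 to 107551319), which works with the chaperones that fold heavy chains, was at 14.6, 18.4, 11 and 17.2 CPM and 32.1, 35.9, 24.8 and 35.9 CPM. Its ratio was 2.11 (1.61 to 2.75, adjusted p = 0.00535), again without overlap. Dnaaf1 rose from 7.17 ± 1.06 to 13.5 ± 2.39 CPM (ratio 1.88, 1.47 to 2.41) and Dnaaf3 from 14.6 ± 3.71 to 27 ± 3.79 CPM (ratio 1.85, 1.39 to 2.45), the latter losing its call when control 2 or any of mutant-labelled libraries 1, 2 and 4 was left out. Lrrc6, a partner of Zmynd10, was listed at 5.77, 4.54, 4.58 and 4.5 CPM and 5.46, 7.95, 5.93 and 8.77 CPM. Control 1 exceeded the lowest mutant-labelled library, and Lrrc6 was not called (ratio 1.45, 1.09 to 1.93, adjusted p = 0.108). The intervals of Ccdc103 and Zmynd10 lay above those of Dnah5, Dnah6, Dnah9 and Dnah11. Both overlapped those of Dnah1, Dnah2, Dnah3, Dnah7b, Dnah10 and Dnah12, and that of Dnah7a met the interval of Zmynd10 alone. Differences between these genes were not tested. Exons of other genes cover 20.7% of the counted bases of Dnaaf1, 16.5% of Dnaaf3 and 10.1% of Zmynd10, where read pairs touching both genes were not counted.

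Rulers and the nexin-dynein complex gave 4 calls among 6. Ccdc39 and Ccdc40, which together form the ruler that sets the repeat of the arms, had ratios of 1.68 (1.27 to 2.23, adjusted p = 0.0362) and 1.73 (1.27 to 2.34, adjusted p = 0.0406). Ccdc39 was at 21.5, 16.8, 11.3 and 13.7 CPM in controls and 27.4, 28.6, 22.5 and 28 CPM in libraries labelled mutant, with control 1 just below mutant-labelled library 3, and exons of other genes cover 16.9% of its counted bases. Ccdc40 was at 23.9 ± 6.99 and 41.4 ± 5.96 CPM. Both were called with all libraries but lost the call without control 2 or 3, without any single mutant-labelled library and without controls 2 and 3 together, and Ccdc39 also without control 4. The 4 calls of this group became 2 without controls 2 and 3 and 1, Drc3, with the epithelial scaling. Drc3, a subunit of the nexin-dynein complex, stood at 28.6, 30.8, 26.9 and 32.7 CPM and 48.1, 54.3, 39.5 and 56.2 CPM, all mutant-labelled libraries above the controls (ratio 1.67, 1.39 to 2.0, adjusted p = 0.00501). Ccdc113, a coiled-coil protein of motile cilia, was at 12.2, 14, 11.7 and 12.4 and 17.9, 19.8, 16.6 and 23.6 CPM (ratio 1.55, 1.28 to 1.88, adjusted p = 0.0135). Drc1, another subunit of the same complex, was at 21.4, 27.7, 21.8 and 23.3 CPM and 25.4, 32.1, 21.2 and 30.7 CPM, with mutant-labelled library 3 the lowest of all 8 and a ratio of 1.16 (0.936 to 1.45, adjusted p = 0.359). Ccdc153, a further protein of the complex, was at 71.2 ± 4.0 and 83.8 ± 14.5 CPM and was not called (adjusted p = 0.241).

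Radial spoke genes gave 3 calls among 4. Lrrc23 (ENSMUSG00000030125.11, chromosome 6, 124769863 to 124779727), a leucine-rich repeat protein of the spokes, had the largest ratio of the 44. It stood at 42.3, 32.7, 28.2 and 51.3 CPM in controls 1 to 4 and 94.7, 115, 77.9 and 115 CPM in libraries 1 to 4 labelled mutant, so that the lowest of these lay well above the highest control (ratio 2.6, 1.92 to 3.53, adjusted p = 0.00302). Of the spoke head genes, Rsph1 and Rsph9 were called and Rsph4a was not, and the difference between them was not tested. Rsph1 was at 25.3, 30.1, 28.8 and 32 CPM and 44.4, 56.2, 40.8 and 58 CPM, without overlap (ratio 1.72, 1.41 to 2.09, adjusted p = 0.00569), and Rsph9 rose from 18.2 ± 2.7 to 30.5 ± 3.5 CPM (ratio 1.68, 1.38 to 2.04, adjusted p = 0.00724). Rsph4a, another head protein, was at 22.7, 25.2, 16.3 and 16.3 and 24.3, 24.7, 16.4 and 25.6 CPM. Controls 1 and 2 lay close to the 3 higher mutant-labelled libraries, and mutant-labelled library 3 matched the 2 lower controls (ratio 1.13, 0.85 to 1.5, adjusted p = 0.58).

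Central pair genes were not called by edgeR (0 of 3), DESeq2 or limma-voom, with 2 at an unadjusted p under 0.05. Hydin (ENSMUSG00000059854.8, chromosome 8, 110266977 to 110610253), a very large protein of a central pair projection, stood at 31.1, 25, 17.8 and 31.8 CPM in controls and 24.7, 33.2, 28.5 and 25.4 CPM in libraries labelled mutant. The groups overlapped, and the ratio was 1.05 (0.8 to 1.39, adjusted p = 0.822). Its estimate turned negative without controls 2 and 3, without control 3, without mutant-labelled library 2 and with the epithelial scaling. Spag17 and Spag6l, of other projections, had ratios of 1.43 (1.01 to 2.02) and 1.23 (1.02 to 1.5), and reads of Spag6l could be lost to its near copy Spag6. Spag17 was at 13.2, 7.08, 6.1 and 10.3 CPM and 12.2, 13.1, 12.2 and 15.2 CPM, with control 1 inside the range of the other group, and it was called without control 1. Exons of other genes cover 15.7% of its counted bases.

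Doublet and other axonemal genes gave 6 calls among 10. Dynlrb2 (ENSMUSG00000034467.7, chromosome 8, 116504974 to 116515915), a light chain of dynein complexes, was at 26.1, 22.5, 22.2 and 30.2 CPM in controls and 52.2, 58.6, 44.1 and 66.1 CPM in libraries labelled mutant (ratio 2.19, 1.76 to 2.72, adjusted p = 0.00137). Cfap53 and Cfap52, proteins found inside the doublet microtubules, rose by similar ratios of 2.02 (1.65 to 2.46) and 1.99 (1.6 to 2.49). For Cfap53 the libraries read 9.62, 9.9, 11.3 and 8.39 and 19.6, 22.8, 16.5 and 20.1 CPM, and for both genes every mutant-labelled library lay above every control. Cfap126, known for placing basal bodies, rose from 23.5 ± 4.5 to 43.8 ± 6.25 CPM (ratio 1.86), and the adenylate kinase Ak7 from 32.8 ± 1.23 to 45.9 ± 5.79 CPM (ratio 1.4). The tektins, filament proteins of the doublet wall, split: Tekt1 rose from 15.1 ± 3.26 to 26.1 ± 4.41 CPM (ratio 1.73, adjusted p = 0.021), a call lost when control 3 or any of mutant-labelled libraries 1, 2 and 4 was left out, while Tekt4, at 12.7 ± 2.12 and 18.7 ± 3.64 CPM, was not called (ratio 1.47, adjusted p = 0.076). The difference between the tektins was not tested. Ak7 lost its call without controls 2 and 3 together and with the epithelial scaling.

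The remaining members of that group were not called. Tppp3 (ENSMUSG00000014846.12, chromosome 8, 105467493 to 105471526), a tubulin polymerization protein, was the most abundant of the 44, at 323, 433, 425 and 473 CPM in controls and 359, 435, 344 and 439 CPM in libraries labelled mutant. The groups overlapped and the ratio was 0.954 (0.778 to 1.17, adjusted p = 0.776). Tppp3 was called lower with the epithelial scaling, and without control 4 its log2 change was 0.00. Sntn, of the ciliary tip, was at 10.9, 14.7, 11.9 and 12.7 and 15.2, 16.2, 10.3 and 17 CPM, with mutant-labelled library 3 the lowest of the 8 (ratio 1.17, 0.909 to 1.51). Cfap43, needed for the beat, stood at 45.2 ± 9.39 and 55.8 ± 8.41 CPM (ratio 1.23, 0.959 to 1.59).

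Per kb of counted exon, the members spanned a wide range of levels. In controls Tppp3 stood at 224 ± 34.6 CPM per kb, Dynlrb2 at 45.4 ± 6.7, Foxj1 at 39.97 ± 7.74 and Ccdc153 at 35 ± 1.97 (SD, n = 4 each). The last 3 of these are neighbours in the order whose mean ± SD ranges meet. At the other end were Dnah7a at 0.433 ± 0.038 and Dnah7b at 0.38 ± 0.104 CPM per kb. Of the heavy chains, Dnah6 at 4.66 ± 0.659 and Dnah5 at 3.24 ± 0.431 CPM per kb were the most abundant, and Dnah9, at 2.03 ± 0.226, lay above Dnah11, at 1.23 ± 0.256. In libraries labelled mutant Foxj1 reached 101 ± 11.4 CPM per kb and Dynlrb2 99.4 ± 16.9, whose ranges again met, Lrrc23 reached 58.1 ± 10.4, and Ccdc153 stood at 41.1 ± 7.13.

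The libraries within each group differed in a shared way. Control 3 was the lowest control for 29 of the 44 genes, and controls 4 and 2 the highest for 18 and 16. Among libraries labelled mutant, library 3 was the lowest for 40 genes, and libraries 2 and 4 the highest for 21 and 22. Summed over the 44 genes the level was 1468.9, 1525.4, 1325.2 and 1671.4 CPM in controls 1 to 4 and 2010.1, 2348.6, 1756.3 and 2326.5 CPM in libraries 1 to 4 labelled mutant. Controls 1 and 4 both lay above controls 2 and 3 for 17 members, 7 of them among the 11 heavy chains. The coefficient of variation in controls had a median of 15.6% over the members, 20.9% over the heavy chains and 15.2% over all tested genes. In libraries labelled mutant the median was 15.1% over the members and 9.0% over all tested genes. Of the marker lists of other cell types, that of immune cells summed to 999.0 CPM in control 1, with 451.3 CPM the lowest control and 635.9 to 691.8 CPM in libraries labelled mutant, and its part in the control values was not tested. The ranges of the alveolar list were 22502.7 to 31460.8 and 24401.7 to 30434.4 CPM, and those of the fibroblast and muscle list 2384.3 to 3492.2 and 3010.6 to 3680.0 CPM.

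**Figure D4:**
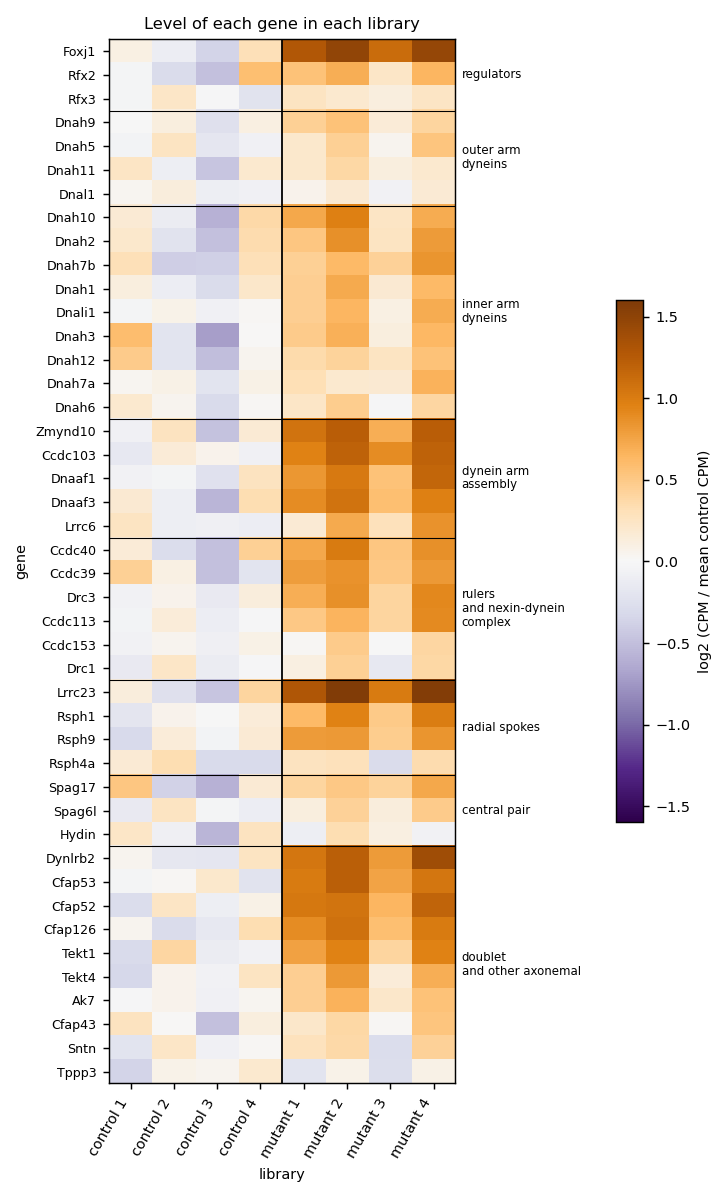
Level of each of the 44 genes (rows, by structural part) in each of the 8 libraries (columns), as log2 of CPM over the mean control CPM of that gene; orange is higher and purple lower. Library 3 of the mutant-labelled group is the palest of its 4 columns, and control 3 is the most purple of the controls.

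A list of 89 other axonemal genes, outside the 44, included 85 that passed the filter. Of these, 32 rose and 0 fell, with a median ratio of 1.38, against 1.45 for the 44 members; at an unadjusted p under 0.05, 55 were higher and 1 lower, and limma-voom called 32 higher and 0 lower. The lowest adjusted p was that of Cfap45, a protein of the doublet lumen, which stood at 14.5, 16.9, 15.1 and 15 CPM in controls and 33.3, 35.9, 29.1 and 33 CPM in libraries labelled mutant (ratio 2.14, 1.86 to 2.46, adjusted p = 0.000117). Next came the coiled-coil genes Ccdc96 (ratio 2.42), Iqcg of the nexin-dynein complex (1.74) and Ccdc151 (2.31), which helps dock outer arms. The intermediate chain genes of the outer arm, Dnaic1 and Dnaic2, had ratios of 1.36 (adjusted p = 0.112) and 1.63 (adjusted p = 0.00982). Of the 3 genes with negative estimates, Tppp had a ratio of 0.586 (adjusted p = 0.0617) and was called lower by DESeq2. The count of 32 fell to 18 without control 3 and to 20, 17 and 17 without mutant-labelled library 1, 2 or 4, was 49 without controls 1 and 4, and was 19 with the epithelial scaling.

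Of 22 tested genes of the programme that commits cells to multiple cilia, 11 rose and 0 fell, with 17 higher and 0 lower at an unadjusted p under 0.05. Ccno, needed for centriole amplification, went from 3.73 ± 0.548 to 33.6 ± 1.79 CPM (ratio 8.96), Mcidas, a master regulator of multiciliated cells, from 1.06 ± 0.144 to 12.1 ± 2.57 CPM (ratio 11.3), and Deup1, a scaffold of the deuterosome where new centrioles form, from 3.69 ± 1.33 to 24.7 ± 1.58 CPM (ratio 6.67). The intervals of these ratios, 7.49 to 10.7, 8.22 to 15.7 and 4.71 to 9.44, lay above the highest upper bound among the 44 axonemal members, 3.53 for Lrrc23. Foxn4 and Myb, transcription factors of the same programme, had ratios of 11 and 1.92. Club cell genes moved the opposite way in the same libraries: 7 of 10 fell and 0 rose, Scgb1a1 with a ratio of 0.312, and their summed level was 25694.3 to 28227.8 CPM in controls and 8938.0 to 11253.1 CPM in libraries labelled mutant. Basal cell genes were low but above the floor on average, with Krt5 at 1.84 ± 0.724 and 1.13 ± 0.819 CPM and Krt15 at 4.19 ± 2.84 and 3.38 ± 2.15 CPM, and 0 of 5 tested were called (0 at an unadjusted p under 0.05, 0 by DESeq2 and 0 by limma-voom, and 1 without controls 1 and 4).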

How the data were processed

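The deposited table holds raw counts of read pairs per gene for 8 libraries; per the file headers, the authors counted STAR alignments with featureCounts 1.6.2 against GENCODE release M25 on GRCm38. The command in the header sets no option for strand, multi-mapping reads or reads over several genes. Bowtie2 and Cufflinks are named without a role in the submitters' processing notes. Illumina Stranded mRNA and TruSeq V2 kits are both named in the labels.

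Symbols were taken from GENCODE M21 (GRCm38) for the 99.53% of identifiers found there. Counts were filtered by filterByExpr, with 10 as minimum count and 15 as minimum total, scaled with TMM and compared with edgeR 4.0.16's quasi-likelihood test (robust, group only) in R 4.3.3, with Benjamini-Hochberg adjustment over 16964 genes; DESeq2 1.42.0 and limma 3.58.1 (voom) were alternatives. Intervals are 95% intervals of the fitted ratio, and CPM uses TMM-scaled totals. On simulated counts of 16724 genes the test recovered 44.8% of genes changed 1.5-fold, 74.6% changed 2-fold and 98.5% changed 4-fold, while unchanged genes made up 5.8% of calls. The simulated libraries were drawn independently, without the pairs seen among the controls, and only better-expressed genes were changed. These rates therefore need not hold for the real counts.

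Members and lists were chosen with earlier results of these data known, so no p is adjusted over a list alone. Values in each library are given for Foxj1, Rfx2, Rfx3, the Dnah7 paralogs, and per structural part the 2 called members with the lowest adjusted p and the smallest change; others were added after their values were seen. Libraries of a group differed by more than counting noise, with a chi-square of 4.88 to 45.58 per gene, the controls falling into the pairs 2 and 3 and 1 and 4, and each library was counted once. No column was left unmapped. Alternatives covered scaling, filters, tools, GC content, length, a replicate term and left-out libraries.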

Additional observations from a re-analysis of the deposited data

Results flagged for a closer look

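In 3 of 88 groups of 4 libraries, a single library stood apart from the rest by Dixon's ratio, its gap to the nearest value over the whole range. Chance flags about 1 group in 20. Lrrc6 in control 1, at 5.77 CPM, had a ratio of 0.94, and the other controls lay between 4.50 and 4.58 CPM. In mutant-labelled library 3, Rsph9 stood at 25.3 CPM with a ratio of 0.878 and Rsph4a at 16.4 CPM with a ratio of 0.851. That library was the lowest of its group for 40 of the 44 genes.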

How the results depend on the processing

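Over 20 alternatives, 12 members kept the call in each: Foxj1, Dnaaf1, Zmynd10, Ccdc103, Drc3, Rsph1, Rsph9, Lrrc23, Cfap52, Cfap53, Cfap126 and Dynlrb2. Of 880 single-gene values under alternatives, 787 kept direction and side of the threshold, 42 gained a call, 37 lost one and 14 changed sign; the cause of these changes was not tested. Leaving out 1 library gave 14 to 24 members higher and 0 lower, 17 to 37 other axonemal genes higher and 0 to 1 lower, and 515 to 1517 of all genes higher and 146 to 1117 lower. Without controls 1 and 4 the counts were 31 members, 49 other axonemal genes higher and 1 lower, and 3750 and 3338 of all genes; without controls 2 and 3, 223 of all genes were lower. Scaling to the epithelial list left 1 member lower, 19 other axonemal genes higher and 4 lower, and 581 and 6545 of all genes. DESeq2 called 1 other axonemal gene and 939 of all genes lower. Main counts were 924 higher and 401 lower. With the replicate number as a block, 24 members were higher, with 19 of 19 calls kept, and 1 other axonemal gene was lower; the correlation of same-numbered libraries ran from -0.123 to 0.134, so the numbers were not read as pairs. Signs changed with the epithelial scaling for Dnah11 (log2 change -0.085), Dnal1 (-0.213), Dnah6 (-0.030), Drc1 (-0.080), Ccdc153 (-0.067), Rsph4a (-0.132), Hydin (-0.229), Cfap43 (-0.009), Sntn (-0.068) and Rfx3 (-0.093), for Hydin also without controls 2 and 3 (-0.171), control 3 (-0.073) or mutant-labelled library 2 (-0.016), its range with 1 library left out being -0.073 to 0.177, and for Tppp3 without control 4 (0.001, with a range of -0.169 to 0.001). Depth limited Lrrc6, Ccdc103 and Dnah7a most, with as few as 66, 65 and 82 counts in a library.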
